A study of Mus musculus with 6 samples.

Results

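The genes described here serve ribosome biogenesis, the making of ribosomes in the nucleolus. They are 40 genes listed by symbol, drawn up with earlier results of these data known although no measured value enters the rule, out of 18194 genes that have a probe set with 1 gene symbol in the platform annotation. All probe sets with one of these symbols were taken, 85 of the 45101 on the array. The samples were C3H10T1/2 cells, a mouse mesenchymal line that can turn into fat, cartilage, bone and muscle cells in culture. BMP4 cells were given 50 ng/ml of BMP4, a secreted bone morphogenetic protein, while they proliferated. Control cells got no BMP4, and total RNA was collected from both at postconfluence. Each group had 3 samples with 1 single-colour array each, and no genotype or allele other than that of the line is given in the labels. The labels do not say whether the 3 samples of a group came from separate cultures, so p-values here refer to the spread among these arrays and may reflect technical variation alone.

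Ribosomes begin as a long ribosomal RNA precursor that RNA polymerase I transcribes in the nucleolus. Small nucleolar ribonucleoproteins (snoRNPs) modify that precursor, and large assemblies of processing factors cut and fold it while ribosomal proteins join, giving the 40S and 60S subunits. Many genes of this pathway are known targets of the transcription factor Myc, and the pathway is generally more active in growing and dividing cells than in resting ones.

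The arrays were scaled by the authors to equal overall brightness, with a 2% trimmed mean signal of 150.001 on all 6, so a change in the same direction in most transcripts would be hidden. In bulk RNA, fewer cells of a type and less RNA per cell cannot be told apart. The highest signal of the 27 bacterial control probe sets, 29.1, served as the background level. Array by array their highest signal was 23.5, 29.1 and 24.1 with BMP4 and 17.1, 16.6 and 21 in controls, so it was higher on BMP4 arrays. Of the probe sets that are not controls, 56.0% to 59.0% lay above the background level on BMP4 arrays and 54.4% to 55.7% on control arrays. All 12 mesenchymal markers examined lay above it on all 6 arrays. Markers of other cell types were mixed. Above it on all 6 arrays were 4 of 7 macrophage and leukocyte markers (Cd68, Adgre1, Csf1r and Cd14), 1 of 7 endothelial markers (Tek), 3 of 7 epithelial markers (Epcam, Krt8 and Krt5) and 3 of 7 skeletal muscle markers (Des, Ckm and Actc1). Above it on no array were Ptprc and Itgam, Pecam1, Tie1 and Vwf, Cdh1 and Krt18, and Myog, Myh3 and Tnnt1. The summed signal of the macrophage and leukocyte markers was 449.7 to 613.4 on BMP4 arrays and 432.6 to 455.8 on control arrays, and that of the endothelial markers 156 to 246.7 on BMP4 arrays and 244.4 to 260.6 on control arrays. For epithelial markers the sum was 419.1 to 652.9 on BMP4 arrays and 525.4 to 618.9 on control arrays, and for muscle markers 215.5 to 293.7 on BMP4 arrays and 197.9 to 254.7 on control arrays. The median signal of an array moved with the treatment, at 37.6 to 42.6 on BMP4 arrays and 35.2 to 37.3 on control arrays, and its part in the members' values is addressed only by the other scalings given with them. Among the markers, the mesenchymal gene Pdgfra fell by 0.90 on the log2 scale (limma adjusted p = 6.3e-05), a call that held under all 15 alternatives. The endothelial gene Tek fell by 0.69 (limma adjusted p = 0.0167), and this call was lost without BMP4 replicate 3 or control replicate 1 or 3 (limma adjusted p = 0.0523 to 0.0788). The mesenchymal gene Twist1 fell by 0.48 (limma adjusted p = 0.044), but the call held under just 6 of 15 alternatives. It was lost without BMP4 replicate 1, where the change was -0.32, without BMP4 replicate 3 or any 1 control array, with the replicate block, with quantile normalization, and with no filter or no intensity trend (limma adjusted p = 0.0569 to 0.155). The part of these markers in the members' values was not tested.

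With 1 probe set per gene, 39 of the 40 ribosome biogenesis members were bright enough to be tested, and 0 of them passed limma's test after Benjamini-Hochberg adjustment over all 27022 probe sets tested. The lowest adjusted p among them was 0.0982. Across all 12966 genes tested, 10.7% passed, with 5.03% higher and 5.66% lower in BMP4 cells. At an unadjusted limma p of 0.05, 5 members were past the threshold upward and 1 downward, together 15.4% of the members, against 24.9% of all genes. The 3 BMP4 arrays lay wholly above or below the 3 control arrays for 6 of the 39 members, against 30.7% of all genes tested. The remaining member, Rrp12, had 1 probe set, which was too dim to be kept.

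The measured differences were small, and their intervals were mostly narrow. Log2 changes, BMP4 minus control on the log2(signal + 16) scale, ran from -0.26 to 0.41, with a median of -0.04, and 22 of the 39 lay below 0. Over all genes tested the median was 0.03, and 44.9% lay below 0. The median size of the change regardless of sign was 0.09 for the members and 0.15 for all genes. For 37 of the 39 members the 95% interval of the change stayed within 1.5-fold in either direction, against 69.2% of all genes tested. The exceptions were Nop56, whose interval reached 0.72, and Nop2, whose interval reached -0.68. For all 39 the interval stayed within 2-fold, against 93.6% of all genes tested, so changes smaller than these bounds remain possible. With arrays centred on their medians, a scaling that moved the median of all genes by -0.09, 31 of the 39 members lay below 0. The median of all genes was then -0.07, so most genes tested lay below 0 as well.

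**Figure D1:**
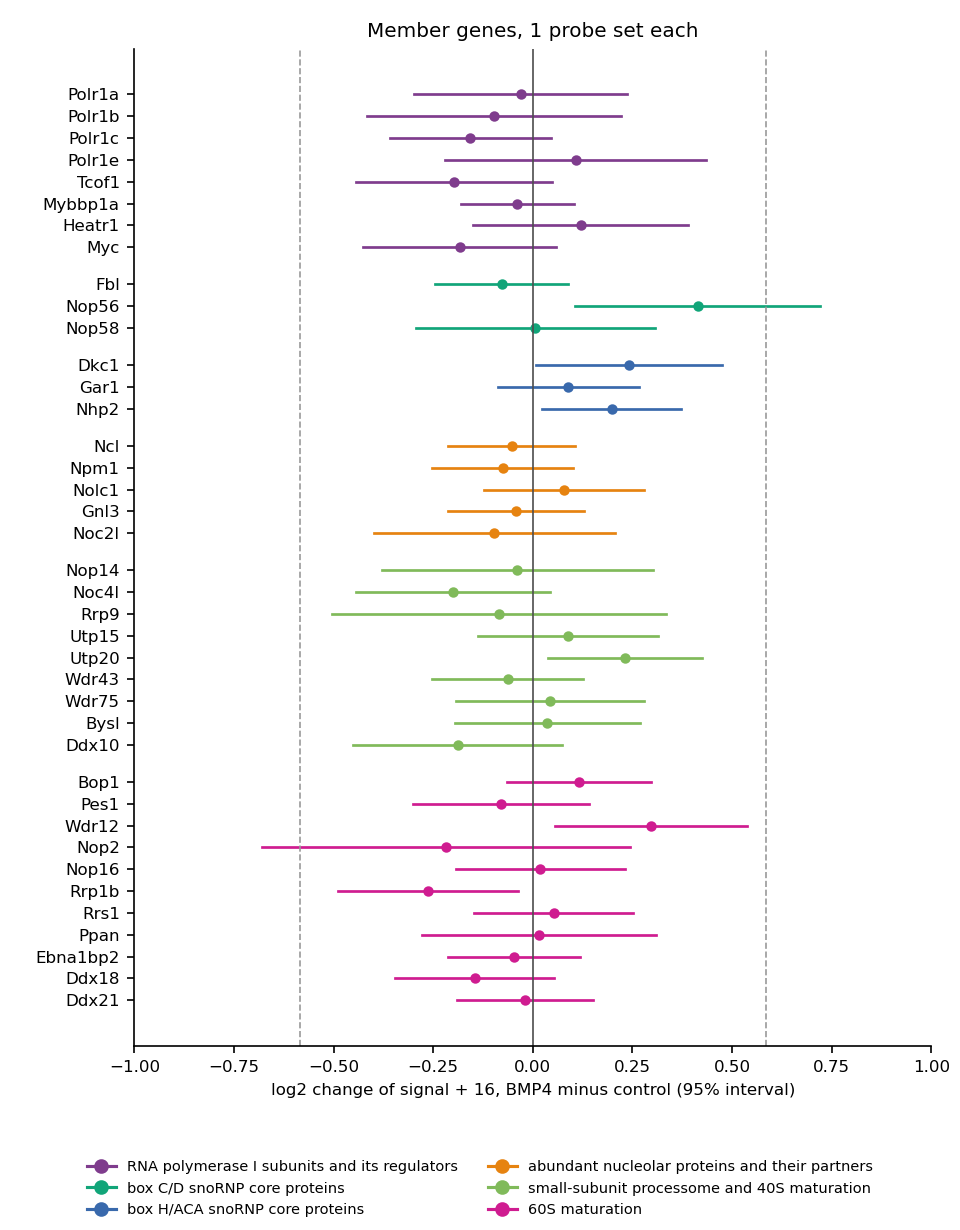
Log2 change of signal + 16 (BMP4 minus control, horizontal axis) for the 39 members tested, 1 probe set per gene, coloured by role; points are limma estimates, bars are 95% intervals, n = 3 arrays per group, and dashed lines mark 1.5-fold. The points lie between -0.26 and 0.41, and 37 of the 39 intervals stay between the dashed lines.

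RNA polymerase I makes the precursor, and its subunits and regulators gave 0 of 8 genes past the test (limma), with 6 of 8 below 0 and a median log2 change of -0.07. Polr1a, the largest subunit of the enzyme, had signals of 106.7, 94.7 and 119.3 on BMP4 arrays, against 107, 105.2 and 115.4 on control arrays. The groups overlapped, and the log2 change was -0.03 ± 0.12 (SE, limma adjusted p = 0.915). A Polr1a probe set of similar brightness, whose groups overlapped too, lay above 0 at 0.28 (limma adjusted p = 0.376). Polr1b, the other catalytic subunit, had signals of 59.2, 71.2 and 59.0 on BMP4 arrays and 70.7, 72.2 and 62.6 on control arrays. These also overlapped, with a log2 change estimated at -0.10 ± 0.14 (SE, limma adjusted p = 0.747). Polr1c, which RNA polymerase III shares, averaged 372 ± 28.8 with BMP4 and 417 ± 43.1 without it (SD, n = 3 each). For Polr1e, another polymerase I subunit, the means were 78.9 ± 6.26 in BMP4 cells and 72.5 ± 11.9 in control cells.

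Among the regulators, Tcof1 encodes treacle, which helps to bring the polymerase to ribosomal genes, and averaged 148 ± 19.5 in BMP4 cells and 171 ± 9.58 in control cells (SD, n = 3 each). Its log2 change of -0.20 (95% interval -0.44 to 0.05) was the lowest of this group. Mybbp1a, a nucleolar protein that represses polymerase I, averaged 533 ± 12.8 in BMP4 cells and 548 ± 14.3 in control cells. Heatr1, needed for transcription of the precursor and for making the 40S subunit, averaged 229 ± 45.5 in BMP4 cells and 207 ± 4.84 in control cells, and its BMP4 signals were 278.3, 188.5 and 220.4.

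Myc, a transcription factor known to raise transcription by all 3 RNA polymerases, had signals of 224.1, 238.5 and 226.6 on BMP4 arrays and 294.3, 284.0 and 217.4 on control arrays. The BMP4 arrays lay close together, and the control arrays lay on both sides of them. The log2 change was -0.18 ± 0.11 (SE, 95% interval -0.43 to 0.06, limma adjusted p = 0.361).

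Box C/D snoRNPs guide methylation of the precursor, and 0 of their 3 core genes passed the test. Fbl, the methyltransferase fibrillarin, had signals of 580.5, 564.8 and 595.2 on BMP4 arrays, against 555.4, 654.2 and 634.5 on control arrays. The groups overlapped, with a log2 change estimated at -0.08 ± 0.08 (SE, limma adjusted p = 0.594). Nop58, which with Nop56 forms the scaffold of the particle, averaged 296 ± 22.1 in BMP4 cells and 299 ± 64.7 in control cells (SD, n = 3 each). Its control signals of 349.6, 320.7 and 225.9 spanned the BMP4 ones.

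Nop56 had the largest log2 change of the 39. Its array signals were 327.3, 264.2 and 316.2 on BMP4 arrays and 285.5, 191.9 and 199.8 on control arrays. Control replicate 1 lay above BMP4 replicate 2, so the groups overlapped, and the log2 change of 0.41 ± 0.14 (SE, 95% interval 0.11 to 0.72) did not pass (limma adjusted p = 0.0982). Without control replicate 1 the change was 0.58 and passed (limma adjusted p = 0.014), and it also passed with the replicate number of the titles as a block (limma adjusted p = 0.0406). With any other array left out it did not pass (limma adjusted p = 0.0815 to 0.289). Median centring gave 0.32 (limma adjusted p = 0.174). A second, dimmer probe set of Nop56 averaged 194 ± 15.3 in BMP4 cells and 180 ± 12 in control cells, with a log2 change of 0.10 (limma adjusted p = 0.599).

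Box H/ACA snoRNPs guide the conversion of uridine to pseudouridine, and 0 of their 3 core genes passed the test. All 3 log2 changes lay above 0 under the deposited scaling, while with arrays centred on their medians Dkc1, Nhp2 and Gar1 gave 0.15, 0.10 and -0.0051. Dkc1, the pseudouridine synthase dyskerin, had signals of 234.1, 222.0 and 272.9 on BMP4 arrays and 207.4, 180.2 and 221.5 on control arrays. The lowest BMP4 signal was just above the highest control signal, and the log2 change was 0.24 ± 0.11 (SE, limma adjusted p = 0.205). Dimmer probe sets of Dkc1 overlapped between the groups and gave 0.14 and -0.004 (limma adjusted p = 0.48 and 0.99). Nhp2, a core protein that binds the guide RNA, had signals of 518.8, 468.1 and 517.4 on BMP4 arrays and 397.0, 458.7 and 450.9 on control arrays. These did not overlap, with a log2 change estimated at 0.20 ± 0.08 (SE, limma adjusted p = 0.167). Gar1, the remaining core protein, had 247.4, 241.7 and 239.5 on BMP4 arrays and 239.4, 215.0 and 228.0 on control arrays. Its lowest BMP4 signal and highest control signal were nearly equal, and the log2 change was 0.09 (limma adjusted p = 0.562).

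The abundant nucleolar proteins and their partners gave 0 of 5 genes past the test, with 4 of 5 below 0 and a median log2 change of -0.05. Ncl, nucleolin, which binds the nascent precursor, had signals of 2056, 2198.4 and 2071.6 on BMP4 arrays and 2064.1, 2186.9 and 2318.7 on control arrays. The ranges overlapped, with control replicate 3 above every BMP4 array, and the log2 change was -0.05 ± 0.07 (SE, 95% interval -0.21 to 0.11, limma adjusted p = 0.718). Npm1, the histone and ribosome chaperone nucleophosmin, had signals of 4065.6, 4304.3 and 3913.6 on BMP4 arrays and 4086.1, 4521.3 and 4344.1 on control arrays. Its log2 change was -0.08 ± 0.08 (SE, 95% interval -0.25 to 0.10, limma adjusted p = 0.626). Nolc1, a chaperone of snoRNPs, averaged 274 ± 18.3 in BMP4 cells and 259 ± 24.3 in control cells (SD, n = 3 each). For Gnl3, the GTP-binding protein nucleostemin, the means were 365 ± 23.6 in BMP4 cells and 376 ± 19.3 in control cells. Noc2l, a nucleolar inhibitor of histone acetylation, averaged 88.5 ± 14.9 in BMP4 cells and 95.1 ± 3.87 in control cells.

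**Figure D2:**
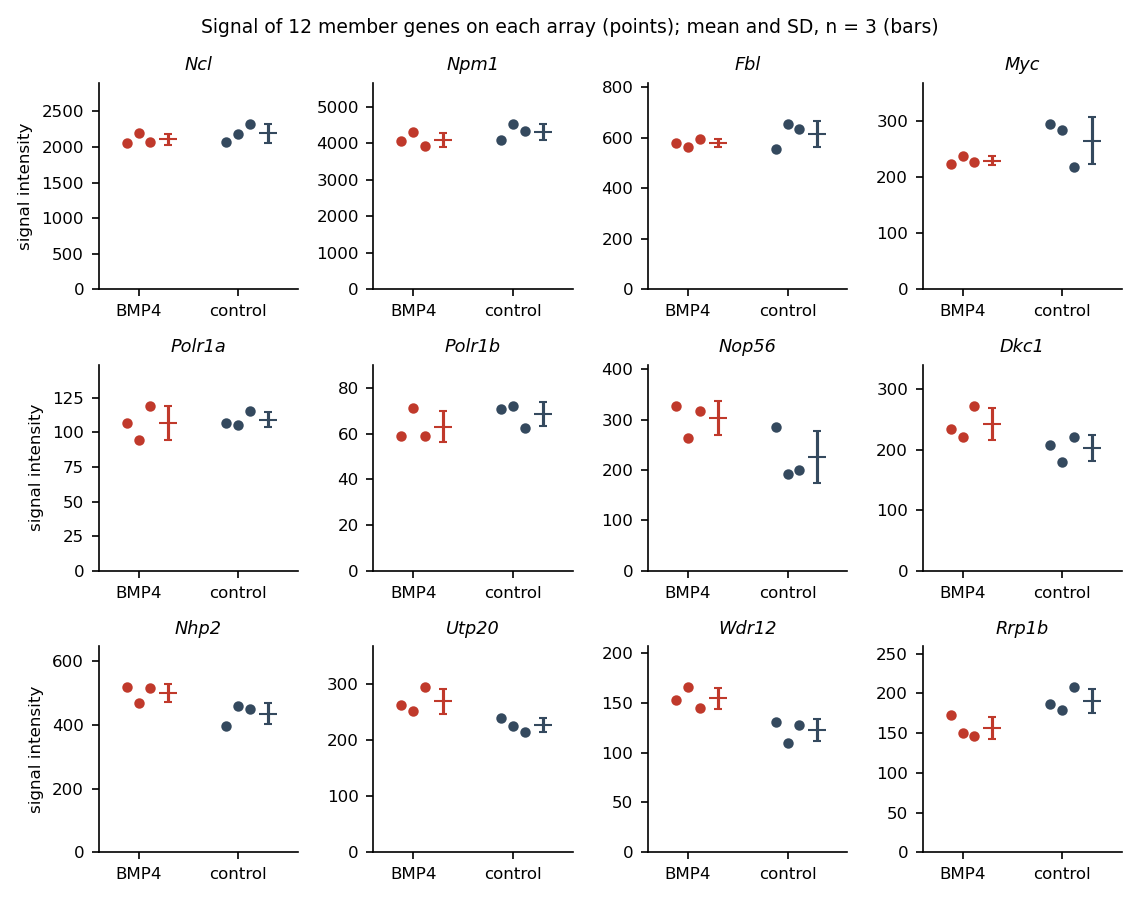
Signal intensity (linear vertical axis from 0) of 12 member genes on each array, BMP4 left and control right; points are arrays, and the bar beside them is the mean with its SD, n = 3. Signals of Ncl, Npm1, Fbl, Myc, Polr1a, Polr1b and Nop56 overlap between the groups, while those of Dkc1, Nhp2, Utp20, Wdr12 and Rrp1b do not.

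The small-subunit processome is the assembly that cuts out the RNA of the 40S subunit, and it was represented by 10 genes, of which 9 were tested and 0 passed. Their median log2 change was -0.04, with 5 of 9 below 0. Utp20, a large scaffold protein of the processome, had signals of 262.5, 252.7 and 294.9 on BMP4 arrays and 240.0, 226.3 and 215.8 on control arrays. The groups did not overlap, and the log2 change was 0.23 ± 0.09 (SE, limma adjusted p = 0.143). The polymerase-linked subcomplex of the processome includes Wdr43, Wdr75 and Utp15. Wdr43 averaged 361 ± 7.65 in BMP4 cells and 379 ± 41.7 in control cells, and Wdr75 averaged 185 ± 22.3 in BMP4 cells and 179 ± 11.4 in control cells (SD, n = 3 each). Utp15 averaged 183 ± 21.2 with BMP4 and 171 ± 6.82 without it.

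Nop14 and Noc4l, whose yeast counterparts act as partners in 40S assembly, had log2 changes of -0.04 and -0.20 (limma adjusted p = 0.915 and 0.319). A Noc4l probe set of similar brightness lay the other way, with signals of 223.1, 158.1 and 238.4 on BMP4 arrays and 142.1, 170.8 and 164 on control arrays. These overlapped, and its change of 0.33 did not pass (limma adjusted p = 0.192). Without BMP4 replicate 2, its lowest BMP4 array, it was 0.50 and passed (limma adjusted p = 0.0273). With any other array left out it did not pass (limma adjusted p = 0.241 to 0.4275). Bysl, the late 40S factor bystin, averaged 202 ± 20.7 in BMP4 cells and 196 ± 18.9 in control cells (SD, n = 3 each). Ddx10, an RNA helicase, averaged 149 ± 22.7 in BMP4 cells and 172 ± 13.1 in control cells, with an estimate of -0.19 in log2 units (limma adjusted p = 0.387). A Ddx10 probe set of similar brightness lay the other way, at 0.26 (limma adjusted p = 0.278), and its groups overlapped. Rrp9, which binds the U3 snoRNA, was below the background level on all 6 arrays, with 21.5, 27.8 and 19.9 with BMP4 and 25.3 on each control array, so its small log2 change of -0.09 says little of the transcript. Rrp12, an export factor of the subunits, was listed at 2.9, 28.9 and 19.4 on BMP4 arrays and 35.8, 24.8 and 9.2 on control arrays, and was above background on a single control array.

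Maturation of the 60S subunit was represented by 11 genes, of which 0 passed the test, with 6 of 11 below 0 and a median log2 change of -0.02. Bop1, Pes1 and Wdr12 form the PeBoW complex, which is required for cutting the precursor on the 60S side. Their log2 changes lay on both sides of 0. Wdr12 had signals of 152.7, 165.4 and 144.7 on BMP4 arrays and 130.8, 110.0 and 127.3 on control arrays, without overlap, and a log2 change estimated at 0.30 ± 0.11 (SE, limma adjusted p = 0.13). Bop1 averaged 306 ± 20.2 in BMP4 cells and 281 ± 14.8 in control cells (SD, n = 3 each), with an estimated change of 0.12 in log2 units (limma adjusted p = 0.449). Pes1 averaged 177 ± 7.97 in BMP4 cells and 189 ± 19.5 in control cells, and the change was -0.08 in log2 units (limma adjusted p = 0.691).

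Rrp1b, a nucleolar protein of the pre-60S particle, had the lowest log2 change of the 39. Its signals were 172.4, 150.7 and 146.0 on BMP4 arrays and 186.1, 178.5 and 207.6 on control arrays, without overlap. The log2 change of -0.26 ± 0.10 (SE, 95% interval -0.49 to -0.04) did not pass (limma adjusted p = 0.154), and 2 dimmer probe sets of the gene gave 0.06 and -0.15. With arrays centred on their medians the change was -0.36 (limma adjusted p = 0.0501). Nop2, which methylates the large ribosomal RNA, had signals of 95.6, 142.4 and 205.4 on BMP4 arrays and 139.4, 181.6 and 184.6 on control arrays. The BMP4 arrays spread over more than the whole control range, and the interval of the log2 change was the widest of the 39, from -0.68 to 0.24.

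None of the remaining 60S genes had an unadjusted limma p under 0.05. The helicase Ddx18 averaged 349 ± 41.4 in BMP4 cells and 386 ± 13.8 in control cells (SD, n = 3 each). The helicase Ddx21 averaged 380 ± 16 in BMP4 cells and 386 ± 27.9 in control cells. Rrs1, which helps to place the 5S particle, averaged 372 ± 28.4 in BMP4 cells and 358 ± 36.6 in control cells. Ppan and Nop16, both pre-60S factors, had log2 changes of 0.02 each, with limma adjusted p of 0.963 for Ppan and 0.935 for Nop16. Ebna1bp2, another pre-60S factor, averaged 331 ± 10.5 in BMP4 cells and 342 ± 19.5 in control cells on the probe set that stands for it.

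Of the 79 member probe sets tested, 1 passed, upward, and 0 passed downward. Of all probe sets tested, 9.12% passed, with 4.2% higher and 4.91% lower in BMP4 cells. At an unadjusted limma p of 0.05, 8 member probe sets were past the threshold upward and 1 downward, 11.4% of the 79, against 22.5% of all. The 95% interval stayed within 2-fold for 77 of the 79, against 93.3% of all. The probe set that passed was a dimmer one of Ebna1bp2. Its signals were 73.7, 98.4 and 61.7 on BMP4 arrays and 49.8, 40.6 and 28.3 on control arrays, the last below the background level. Its log2 change was 0.76 ± 0.20 (SE, limma adjusted p = 0.0402), against -0.05 (limma adjusted p = 0.768) on the brighter probe set. Its name ends in _x_at, the suffix the array's maker gives to probe sets that may also bind other transcripts. The names of the probe sets that stand for Polr1e and Rrs1, which did not pass, have the same suffix. Leaving out BMP4 replicate 1 or 2 or control replicate 2 or 3 ended the call, with limma adjusted p of 0.0756, 0.14, 0.0927 and 0.126 in that order. No filter, quantile normalization, median centring and a fit without the intensity trend also ended it.

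Probe sets of the same gene often lay on opposite sides of 0. Of the 28 genes with more than 1 probe set tested, 14 had log2 changes on both sides of 0, and the median spread between probe sets of a gene was 0.20. The matching share over all genes was not computed. Of the 40 further probe sets, 22 lay on the same side of 0 as the probe set that stands for the gene. The largest spreads, 0.80 and 0.77, belonged to Ebna1bp2 and Polr1a. For Polr1a a dim probe set had signals of 95, 53.9 and 52.1 on BMP4 arrays and 54.3, 30.3 and 18.6 on control arrays, with an estimate of 0.74 in log2 units (limma adjusted p = 0.132). With the replicate block this probe set passed (limma adjusted p = 0.0384). Of Ncl, 4 of 5 probe sets lay below 0, the lowest at -0.23, and the remaining dim one at 0.10.

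**Figure D3:**
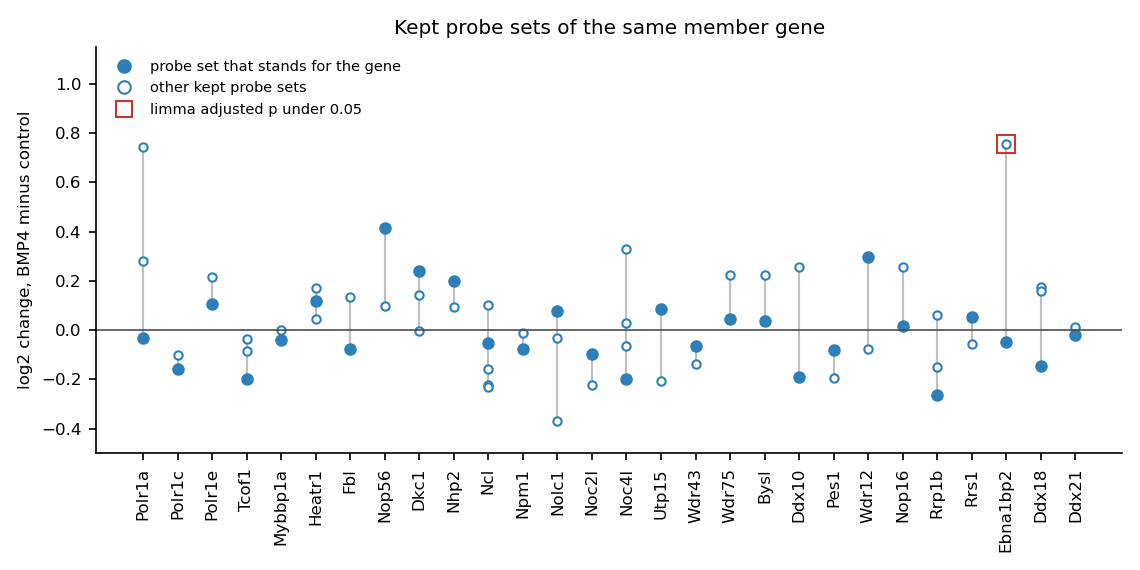
Log2 change (vertical axis, BMP4 minus control) of every tested probe set of the 28 members with more than 1; filled points stand for the gene, open points are the others, a grey line joins probe sets of a gene, and the red square marks the 1 with a limma adjusted p under 0.05. For 14 of the 28 genes the points lie on both sides of 0, and the largest spreads belong to Ebna1bp2 and Polr1a.

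Seen array by array, the members did not separate the groups. The median deviation of the 39 genes from their own means over the 6 arrays was -0.05, -0.02 and 0.03 on the log2 scale for BMP4 replicates 1, 2 and 3. It was 0.03, -0.01 and 0.02 for control replicates 1, 2 and 3. The number of members above their own mean was 15, 17 and 24 on BMP4 arrays and 22, 19 and 22 on control arrays. BMP4 replicate 3 thus had the most members above their mean and BMP4 replicate 1 the fewest. By role, the box H/ACA genes had medians of 0.08, 0.004 and 0.14 on BMP4 arrays and -0.09, -0.12 and -0.04 on control arrays. The polymerase I genes lay the other way, with -0.03, -0.05 and -0.04 on BMP4 arrays and 0.03, 0.05 and 0.0003 on control arrays. The roles hold 3 to 11 genes, and both patterns consist of genes that did not pass the test. Control replicate 3 stood apart for the box C/D genes, at -0.35.

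**Figure D4:**
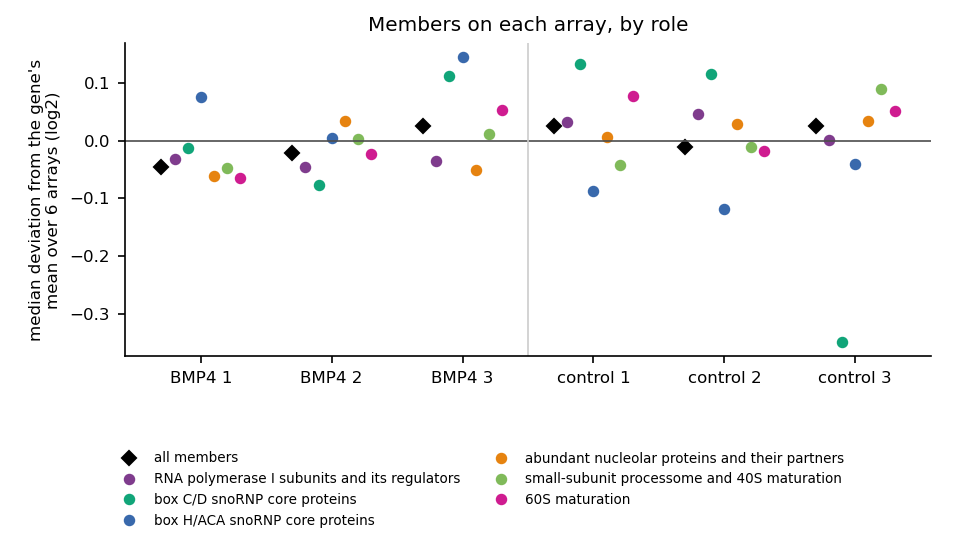
Median deviation of the members from each gene's own mean over the 6 arrays (vertical axis, log2), for all 39 members (black diamonds) and by role (coloured points), with BMP4 arrays left of the line and control arrays right of it. The black diamonds stay between -0.05 and 0.03 on every array.

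For 33 of the 40 genes RefSeq's table (build GRCm38.p6) gives promoter sequence, taken from 250 bases before to 50 bases after the annotated start. Myc is known to bind the E-box CACGTG, which reads the same on both strands, and this motif was searched for in every promoter. It was present in 5 of the 33 members with a promoter (15.2%), and in 8.09% of all 27025 genes in the table. The 5 were Nop2, Utp20, Pes1, Mybbp1a and Wdr43, with log2 changes of -0.22, 0.23, -0.08, -0.04 and -0.06, and the other 28 ran from -0.26 to 0.41. Promoters are shown for 4 of the 5 genes with an unadjusted limma p under 0.05 upward, namely those with a single start in the table, with the E-box in capitals where it occurs. They lie at chr2:130274162-130274461 (plus strand) for Nop56, chr11:51619523-51619822 (plus strand) for Nhp2, chrX:75095604-75095903 (plus strand) for Dkc1 and chr10:88826765-88827064 (minus strand) for Utp20.
Nop56: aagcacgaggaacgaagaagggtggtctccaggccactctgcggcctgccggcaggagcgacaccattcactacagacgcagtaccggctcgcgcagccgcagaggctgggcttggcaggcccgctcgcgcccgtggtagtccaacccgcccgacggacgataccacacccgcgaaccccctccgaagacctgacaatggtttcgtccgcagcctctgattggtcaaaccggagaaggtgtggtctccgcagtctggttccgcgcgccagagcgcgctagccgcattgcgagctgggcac
Nhp2: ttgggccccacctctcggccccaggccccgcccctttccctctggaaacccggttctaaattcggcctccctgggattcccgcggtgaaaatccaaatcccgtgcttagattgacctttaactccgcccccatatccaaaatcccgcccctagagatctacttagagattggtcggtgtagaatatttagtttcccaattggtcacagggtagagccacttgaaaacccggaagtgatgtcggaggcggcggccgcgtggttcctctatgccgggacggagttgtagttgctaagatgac
Dkc1: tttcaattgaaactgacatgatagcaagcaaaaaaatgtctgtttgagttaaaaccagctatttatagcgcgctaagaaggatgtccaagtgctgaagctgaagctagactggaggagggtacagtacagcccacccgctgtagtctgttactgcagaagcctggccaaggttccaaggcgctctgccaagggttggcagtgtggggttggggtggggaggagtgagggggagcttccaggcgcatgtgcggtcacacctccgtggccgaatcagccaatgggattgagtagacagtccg
Utp20: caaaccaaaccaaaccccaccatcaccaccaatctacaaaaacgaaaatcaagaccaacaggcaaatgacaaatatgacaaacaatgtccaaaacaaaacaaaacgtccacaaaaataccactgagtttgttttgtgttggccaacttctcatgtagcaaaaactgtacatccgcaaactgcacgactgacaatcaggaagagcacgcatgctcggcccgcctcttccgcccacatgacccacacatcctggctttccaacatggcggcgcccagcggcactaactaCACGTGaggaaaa
Of these, the Utp20 promoter alone holds the motif, starting at base 38 after the annotated start. The log2 changes in the same order were 0.41, 0.20, 0.24 and 0.23.

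Other genes of the same pathway were examined from 5 lists with 144 genes, of which 134 were tested. In BMP4 cells 2 of them rose and 3 fell (limma), beside 5.03% higher and 5.66% lower of all genes tested. The median log2 change of these 134 genes was 0.02. Znhit6, an assembly factor of box C/D snoRNPs, had signals of 186.0, 166.0 and 198.7 on BMP4 arrays and 350.6, 358.3 and 376.1 on control arrays. The groups lay far apart, and the fall of 0.92 on the log2 scale (SE 0.09, limma adjusted p = 6.7e-05) can be set beside the largest change among the 39 members, 0.41. Pno1 and Rcl1, whose yeast counterparts are needed to make the RNA of the 40S subunit, rose by 0.50 and 0.46 (limma adjusted p = 0.00522 and 0.00477). Imp3, which binds the U3 snoRNA, fell by 0.35 (limma adjusted p = 0.0288), and Ddx47, a helicase that acts in 40S assembly, fell by 0.31 (limma adjusted p = 0.0282). The calls of Znhit6, Pno1 and Rcl1 held under all 15 alternatives. That of Imp3 was lost without BMP4 replicate 3 or any 1 control replicate (limma adjusted p = 0.0606 to 0.115), and with no filter or no intensity trend (limma adjusted p = 0.0656 and 0.126). That of Ddx47 was lost without BMP4 replicate 1 or 3 or control replicate 1 or 3 (limma adjusted p = 0.063 to 0.11), with the replicate block (limma adjusted p = 0.055), with no intensity trend (limma adjusted p = 0.115) and with the mean of its probe sets (limma adjusted p = 0.394).

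In the other 3 of these lists 0 genes passed. The genes with the smallest p were the polymerase I subunit gene Twistnb (log2 0.25, limma adjusted p = 0.0568), the 60S-associated gene Pa2g4 (0.28, limma adjusted p = 0.0509) and Exosc7 of the RNA exosome (-0.28, limma adjusted p = 0.0562). At an unadjusted p under 0.05, 1 of 12 polymerase I genes, 10 of 51 60S genes and 4 of 22 exosome and nuclease genes were past the threshold, beside 24.9% of all genes tested. Of the other snoRNP genes, 2 of 9 were past that threshold upward and 3 downward. Of the other small-subunit genes, 6 of 40 were past it upward and 2 downward.

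Cytosolic ribosomal proteins, the building blocks that the pathway assembles, were measured for 45 of 83 genes. None rose by the test and 1 fell, beside 5.03% higher and 5.66% lower of all genes tested. The gene that fell was Rpl37, with signals of 1916.5, 1974.9 and 1680.6 on BMP4 arrays and 2255, 2259 and 2274.2 on control arrays. Its fall of 0.29 on the log2 scale (limma adjusted p = 0.0405) was not past the test when any 1 array was left out (limma adjusted p = 0.0523 to 0.131), nor with the replicate block, no filter or no intensity trend (limma adjusted p = 0.0709 to 0.145). The Rpl37 probe set, like the one of Ebna1bp2 that passed, has a name ending in _x_at. So do those of other ribosomal protein genes that did not pass, such as Rpl7 and Rps18. The smallest p among small-subunit genes belonged to Rps6 (log2 -0.28, limma adjusted p = 0.0759). Its mean signals, 340 in BMP4 cells and 418 in control cells, were far below those of most small-subunit genes. Although 2 of 45 were past an unadjusted p of 0.05 upward and 2 downward, 37 of 45 lay above 0, with a median log2 change of 0.12. With arrays centred on their medians the list's median was -0.0012 for large-subunit genes and 0.04 for small-subunit genes. With quantile normalization the medians were -0.03 and -0.0003, so this lean depends on the scaling. It also moved with single arrays. Without control replicate 1 the medians were 0.007 and 0.04, and without control replicate 3 they were 0.18 and 0.19.

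The wider Myc network and its targets outside the nucleolus gave a few calls where the nucleolar members gave none. Of 16 network genes tested 2 rose and 1 fell, beside 5.03% higher and 5.66% lower of all genes tested. Mycn, a relative of Myc, had signals of 124.3, 108.5 and 60.4 on BMP4 arrays and 16, 19.2 and 62.6 on control arrays. Control replicates 1 and 2 were thus below the background level of 29.1. Control replicate 3 lay above BMP4 replicate 3, and the log2 change of 1.3 (limma adjusted p = 0.0331) was not past the test without BMP4 replicate 1 or 2 or control replicate 1 or 2 (limma adjusted p = 0.101 to 0.125), nor with the replicate block, no filter or no intensity trend (limma adjusted p = 0.0614 to 0.109). Mxd3, a partner of Max that opposes Myc, rose by 0.63 (limma adjusted p = 0.00153). Mnt, a repressor that also pairs with Max, fell by 0.34 (limma adjusted p = 0.0318), a call lost without BMP4 replicate 2 or 3 or any 1 control replicate (limma adjusted p = 0.0567 to 0.137), and with no filter, quantile normalization or no intensity trend (limma adjusted p = 0.0538 to 0.105). Of 25 known Myc targets outside the nucleolus 5 rose and 0 fell, beside 5.03% higher and 5.66% lower of all genes tested. Those that rose included the DNA repair gene Apex1 (0.60, limma adjusted p = 0.000595), the transferrin receptor Tfrc (0.49, limma adjusted p = 0.0318) and the lactate dehydrogenase Ldha (0.43, limma adjusted p = 0.00715). The name of the Apex1 probe set also ends in _x_at. The call of Tfrc was lost when BMP4 replicate 3 or when control replicate 1 or 3 was left out (limma adjusted p = 0.0879 to 0.117), and with no filter, median centring, no intensity trend or the mean of its probe sets (limma adjusted p = 0.0677 to 0.159). That of Ldha was lost with median centring and with no intensity trend (limma adjusted p = 0.0725 and 0.0569). Leaving out BMP4 replicate 2 or 3 or control replicate 3 left 3 that rose. Leaving out control replicate 1, or dropping the filter, left 2. Centring on medians left 1, as did a fit with no intensity trend.

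Growth-related lists outside the nucleolus differed widely in their counts, beside 5.03% higher and 5.66% lower of all genes tested. Of 12 proliferation markers tested 11 rose and 0 fell, with a median log2 change of 0.84. Rrm2, a subunit of the enzyme that makes DNA precursors, rose by 1.17 (limma adjusted p = 2.5e-05), the mitotic checkpoint kinase Bub1 by 1.08 (limma adjusted p = 0.00114) and Mki67, the classic marker of cycling cells, by 0.998 (limma adjusted p = 3.1e-05). Mki67 had signals of 419.4, 374.2 and 443.6 on BMP4 arrays and 196.8, 204.2 and 193.1 on control arrays. These markers moved with the treatment while 0 of 39 ribosome biogenesis members passed, and the part of proliferation in any member's value was not tested. With median centring 8 of the 12 rose, as with no intensity trend.

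RNA polymerase III, which makes the 5S RNA and transfer RNAs, gave 0 of 18 genes past the test, with the smallest p for its subunit gene Polr3k (log2 0.21, limma adjusted p = 0.127). Of 14 genes of mTOR signalling, a growth pathway that stimulates ribosome production, 0 passed, with the smallest p for the inhibitor gene Tsc1 (log2 -0.37, limma adjusted p = 0.085). At an unadjusted p under 0.05, 2 of the 18 and 5 of the 14 were past the threshold, beside 24.9% of all genes tested. Of 13 p53 pathway genes, some of which respond when ribosome assembly is disturbed, 3 rose and 1 fell. These counts stand beside 5.03% higher and 5.66% lower of all genes tested. The cell cycle inhibitor Cdkn1a rose by 0.66 (limma adjusted p = 0.000565), Phlda3 by 0.41 (limma adjusted p = 0.0079) and Ccng1 by 0.38 (limma adjusted p = 0.00924), and the fall was that of the sestrin Sesn1, by 0.33 (limma adjusted p = 0.0113). Of the 3 rises, that of Cdkn1a alone passed with median centring and in a fit with no intensity trend, and without that trend the fall of Sesn1 did not (limma adjusted p = 0.0794). With the mean of a gene's probe sets 5 of the 13 rose.

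**Figure D5:**
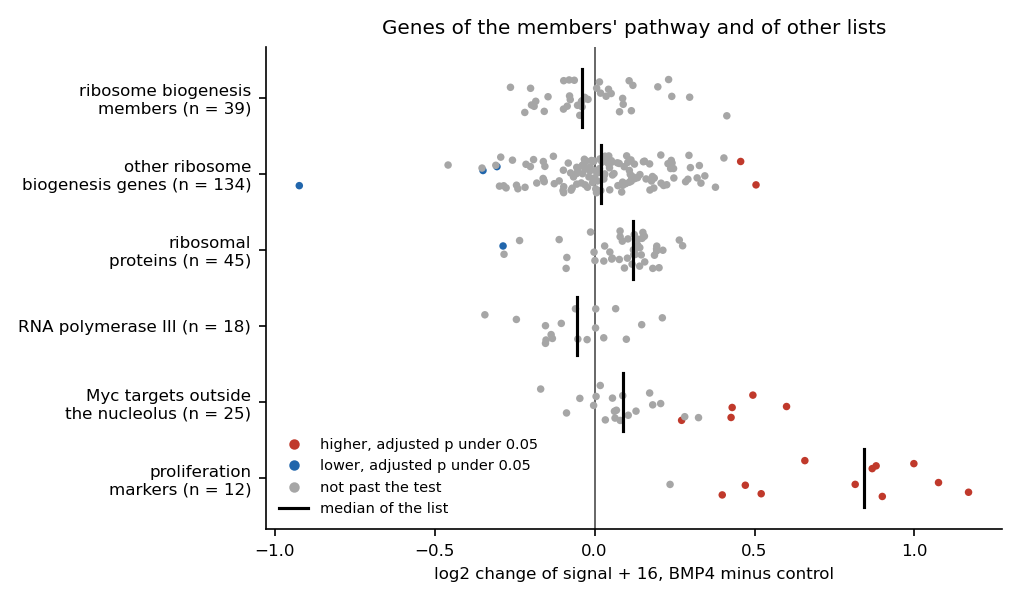
Log2 change of signal + 16 (horizontal axis, BMP4 minus control) for each tested gene of 6 lists; red and blue points passed limma's test upward and downward, grey points did not, black bars are list medians and vertical scatter within a list has no meaning. Members lie around 0 with 0 of 39 coloured, while 11 of 12 proliferation markers are red with a median of 0.84.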

How the data were processed

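Total RNA of 6 samples, 3 with and 3 without BMP4, was measured on single-colour arrays with a biotin label. The deposited values are linear signal intensities. For their making by the authors, the submitters' processing notes name GCOS 1.3. How background was corrected, and the scaling target, is not given in the sources used here. Probe sets were named from the platform annotation, in which 34958 of 45101 have 1 symbol, 932 have several and 9211 are unnamed here, and probe sets with several symbols were not used for genes.

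Signals were put on a log2(signal + 16) scale without the 64 control probe sets. The filter kept 27022 probe sets, those with a mean signal beyond the 40th percentile, 23.5. BMP4 was compared with control in limma 3.58.1 under R 4.3.3, using lmFit and eBayes with a trend on intensity. P-values are two-sided and were adjusted by Benjamini-Hochberg across these 27022, with calls at 0.05. The brightest kept probe set stood for a gene. Signals carry SD, and log2 changes carry limma's moderated SE. Fold changes on the log2(signal + 16) scale understate changes of dim genes. The fit was tested on simulated data. The number of arrays limits the precision.

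The members and the gene lists were chosen with earlier results of these data known. Named are all 40 members and, of each other pathway or growth list, up to 3 genes past the test by size of change or else the one with the smallest p. Ddx47 and Sesn1, each the fourth called gene of its list, and the array values of members without overlap or with the widest changes were added after values were seen. Alternatives tried were other pseudocounts, filters and scalings, no intensity trend, a replicate block, the mean of a gene's probe sets, and leaving out each array.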

Additional observations from a re-analysis of the deposited data

How the results depend on the processing

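Of 584 combinations of a member gene and an alternative, 544 kept the side of 0 and 2 passed the test, both for Nop56, which gave 0.41 with the replicate block and 0.58 without control replicate 1. Member genes called higher numbered 0 in all but those settings, where there was 1, and 0 were called lower under any alternative. Leaving out 1 array gave 0 to 1 member genes higher and 0 to 2 member probe sets higher. The 1 member probe set called higher became 0 with no filter, a filter at the 60th percentile, median centring, quantile normalization or no intensity trend, and 3 with the replicate block. The median log2 change of the members, -0.04, was -0.13 with median centring, which lowers BMP4 values relative to control, and 0.0065 with the mean of a gene's probe sets. Over all probe sets, 1136 were higher and 1328 lower. Median centring gave 632 higher, no intensity trend gave 659 higher and 763 lower, and leaving out 1 array gave a lowest count of 845 lower and a highest of 1063. Other ribosome biogenesis genes called higher, 2 as reported, numbered 4 with pseudocount 64 or the replicate block, 6 with the 60th percentile filter and 7 with quantile normalization. Those called lower, 3 as reported, numbered 7 with median centring, 5 with the mean of a gene's probe sets, 6 with the 60th percentile filter and 1 without the intensity trend or without control replicate 1 or 3. Same-numbered BMP4 and control arrays did not deviate together (r of 0.01, -0.003 and -0.07 for numbers 1, 2 and 3), so the numbers were not taken to pair the samples, and the block moved no other member gene past the test. Dim members such as Rrp9 and Rrp12 were limited by background.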
